A study of Xenopus laevis with 40 samples.

Results

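The axoneme is the microtubule core of a motile cilium. Most genes described here encode its structural parts outside the dynein arms, or proteins linked to those arms. They are radial spoke, central pair, nexin-dynein regulatory complex and ruler proteins, cilia and flagella associated proteins (cfap genes) and tektins. Another 3 cfap genes were placed in none of these structures, and axonemal is used below as a short name for all 43 copies. Members were chosen by name. A gene was taken where its symbol began with cfap, rsph, drc or tekt followed by a digit, or was hydin, spag6, spag16, spag17, ccdc39, ccdc40 or ccdc65, and where it had at least 10 counts in at least 2 libraries. Of 51017 gene IDs, 45 carried such a symbol and 43 met the count minimum. Just inside the minimum was ccdc65.L, with 10 or more counts in 4 libraries, and just outside were cfap58.S, with 17 counts over all libraries, and spag16.S, with 10 counts. Many genes of the frog Xenopus laevis exist as an L and an S copy. The 43 copies (31 L and 12 S) stand for 35 symbols, of which 8 had both copies. All 43 also passed the low-count filter of the test.

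Radial spokes and the central pair pass mechanical signals to the dynein motors, the nexin-dynein regulatory complex links neighbouring microtubule doublets, and the ruler proteins set the repeat along them. Tektins and several cfap proteins lie on the inside of the doublets. In the frog epidermis these parts are needed by multiciliated cells, whose number is restricted by Notch signalling and whose gene program is switched on by multicilin (mcidas) and carried out by foxj1 and rfx factors.

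Gene counts came from bulk RNA-seq of animal cap explants, pieces of the early embryo that grow into ciliated and mucus-secreting epidermis in culture. The 40 libraries form 20 groups, 5 treatments at each of 4 stages (st10.5, st16, st25 and st32, after Nieuwkoop and Faber). Each group has 1 library from each of 2 experiments, which used a different female and fertilization. All embryos were labelled wild type. Uninjected caps served as controls. Embryos of the other groups were injected 4 times with suh-dbm mRNA (100 ng/ul, described as loss of Notch), suh-dbm with dnmcidas mRNA (100 ng/ul each, dominant-negative multicilin), nicd mRNA (120 ng/ul, the intracellular domain of Notch, described as gain of Notch) or a morpholino against the start codon of foxa1 (3 pmol, foxa1MO). No control mRNA or control morpholino is among these groups, so an effect of injection as such cannot be told apart from that of the agent. No cell-type promoter drives the injected agents, and an explant pools all its cell types.

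Library totals lay between 20.2 M and 99.4 M counts (median 36.3 M). Goblet cell markers, genes of the surface secretory cells of this epidermis, summed over 11 copies to 9641 and 10189.5 CPM (CPM, counts scaled to the library total) in uninjected caps at st16. Reads of injected mRNAs appeared as rbpj.S (the gene of Su(H)) at 37707 and 41065 CPM in suh-dbm caps at st10.5 against 16.2 and 11.1 CPM in uninjected caps, and as notch1.S at 18802 and 9964 CPM in nicd caps against 135 and 142 CPM. Counts of mcidas.S likewise include injected dnmcidas mRNA. A start-codon morpholino blocks translation, so foxa1 counts check nothing. In bulk samples, fewer cells of a type and less RNA per cell cannot be told apart, which holds for every change below.

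In uninjected caps 42 of the 43 axonemal copies rose between st10.5 and st16. Their summed level was 163 and 214 CPM at st10.5, 1453 and 1990.2 CPM at st16, 2399.8 and 2376 CPM at st25 and 1885 and 1926 CPM at st32, in experiments 1 and 2. Every library from st16 on lay above both st10.5 libraries. From st10.5 to st16, 42 of the 43 copies rose (edgeR quasi-likelihood test, Benjamini-Hochberg adjusted p under 0.05) with a median log2 fold change of 3.85, where 22.2% of all 31648 genes tested rose and their median was -0.09. The remaining copy was ccdc65.L, with 0.105 and 0.0979 CPM and then 0.0302 and 0.206 CPM. As percent of their own mean at st25, the members stood at a median of 5.34% at st10.5, 74.7% at st16 and 77.9% at st32. The highest mean fell at st25 for 32 copies, at st16 for 6 and at st32 for 5.

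**Figure D1:**
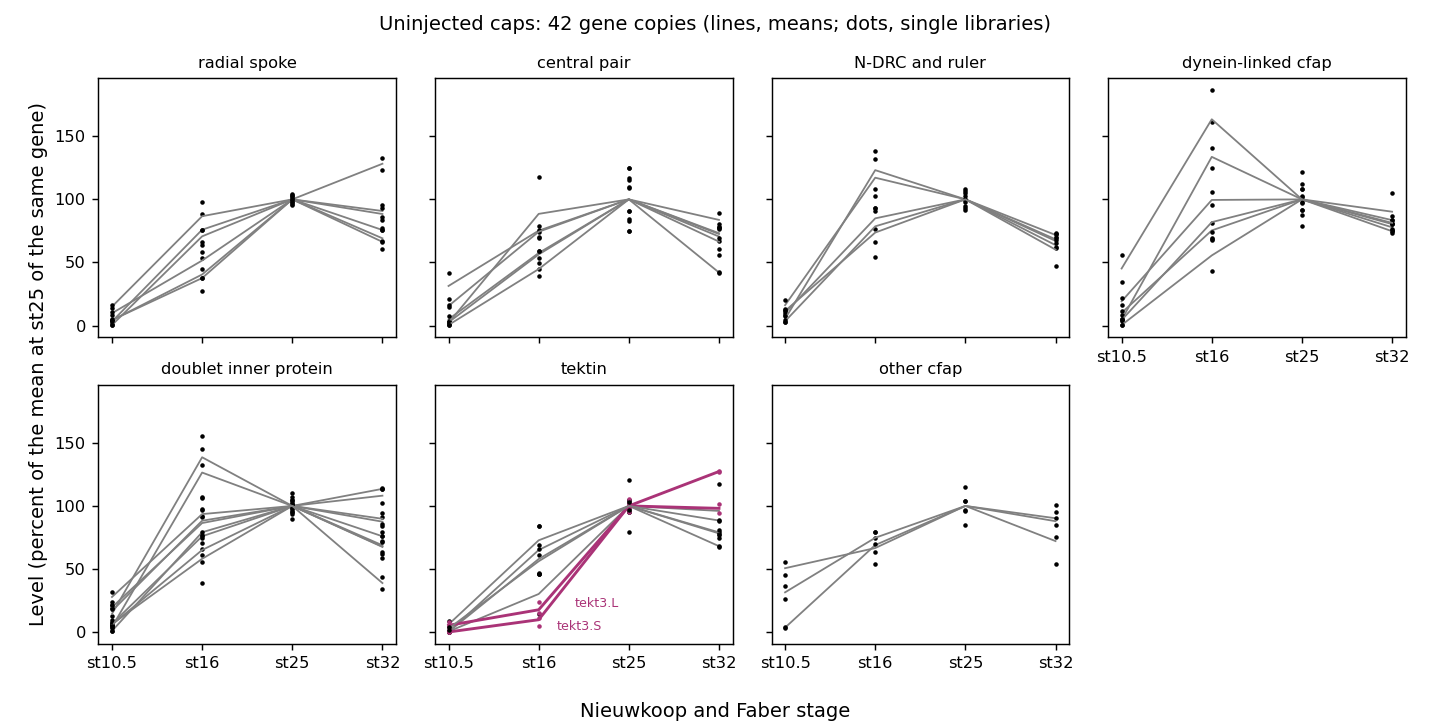
Level of 42 copies in the uninjected libraries, as percent of the mean at st25 of the same gene, against stage (ccdc65.L is left out for its low counts). Most copies reach most of their st25 level by st16, while tekt3.L and tekt3.S, drawn in colour, stand at 17.7% and 9.81% of it.

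The tektin 3 genes were late members. Tektins are filament proteins of the doublet wall. The L copy tekt3.L had 2.21 and 5.8 CPM at st10.5, 8.38 and 18.1 CPM at st16, 71 and 78.8 CPM at st25 and 95.9 and 94.8 CPM at st32. The S copy tekt3.S had 0 and 0.122 CPM at st10.5, 3.61 and 11 CPM at st16, 72.8 and 75.7 CPM at st25 and 75.5 and 70.1 CPM at st32. In both copies all st25 libraries lay above all st16 libraries. These 2 copies rose from st16 to st25 (2.44 ± 0.82 on the log2 scale, ± standard error, adjusted p = 0.0335, for tekt3.L and 3.30 ± 0.77, adjusted p = 0.00347 for tekt3.S), and no other member was called, while 21.9% of all genes tested were called in this step. With the experiment as a term within each stage 5 members were called higher and 1 lower, and without the uninjected st16 library of experiment 1 none was.

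Other members differed in their course without a call. Early ones were cfap73.S and cfap100.L, known from the green alga Chlamydomonas as parts of a complex that modifies inner dynein arms, and cfap52.L, a doublet inner protein. Their st16 means were 163%, 134% and 139% of their st25 means. Of the tektin 2 copies, tekt2.L stood at 30.2% and tekt2.S at 57.9% at st16. Low values at st16 were not confined to tektins. The radial spoke genes rsph14.L and cfap61.L stood at 37.6% and 40.5% of their st25 means, and cfap61.L at 128% at st32. From st25 to st32 no member was called, against 1.44% of all genes tested, and 38 of 43 log2 fold changes lay below 0 with a median of -0.42. In this step an unadjusted p under 0.05 was reached by 2 members, where 14.1% of all genes tested reached it. These were cfap52.S (-1.42 ± 0.47, adjusted p = 0.132) and the central pair gene spag6.S (-1.32 ± 0.45, adjusted p = 0.145). DESeq2 called 1 member. With the experiment as a term within each stage 2 members were called lower in this step, and in a fit of its 4 libraries alone 2 were.

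At st10.5 no injected group had a called member. The summed level lay between 162 and 229 CPM in the 10 libraries of this stage. The median log2 fold changes against uninjected caps were 0.03 for suh-dbm, -0.06 for suh-dbm+dnmcidas, -0.04 for nicd and -0.08 for foxa1MO, where 0.00316%, 0.0126%, 0.0537% and 0.0158% of all genes tested were called. Over all genes tested the medians were -0.14, -0.05, -0.10 and -0.04 in the same order. DESeq2 called none either. An unadjusted p under 0.05 was reached by 2 copies, both with suh-dbm+dnmcidas: ccdc65.S (-1.90 ± 0.87, adjusted p = 1) and cfap161.L (-1.90 ± 0.82, adjusted p = 1). Of all genes tested, 2.87% reached it in that comparison.

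From st16 on, the axonemal genes were low with suh-dbm+dnmcidas and with nicd. With suh-dbm+dnmcidas the summed level was 97.9 and 132 CPM at st16, 155 and 122 CPM at st25 and 187 and 117 CPM at st32. With nicd it was 157 and 234 CPM at st16, 128 and 129.8 CPM at st25 and 94.9 and 84.3 CPM at st32. All 12 of these libraries lay below both uninjected libraries of their stage. At st25 the 3 cfap genes placed in none of the structures made up 44.8 to 53.3 CPM of the sum with suh-dbm+dnmcidas. With nicd they made up 39.2 to 46.2 CPM.

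Against uninjected caps, 41, 40 and 39 of the 43 copies fell with suh-dbm+dnmcidas at st16, st25 and st32, where 3.72%, 4.26% and 2.3% of all genes tested fell. The median log2 fold changes were -4.71, -5.47 and -4.27, against -0.02, 0.01 and 0.00 over all genes tested. With nicd, 42, 41 and 40 copies fell, where 7.22%, 7.1% and 4.05% of all genes tested fell. Its medians were -3.72 (-3.60 with ccdc65.L, which had no count in nicd caps, at its bound), -5.14 and -5.69. No member was called higher in these 6 comparisons. Both sets of comparisons share the uninjected libraries. Within experiments 1 and 2, the median log2 ratios at st25 were -5.54 and -5.57 for suh-dbm+dnmcidas and -5.29 and -4.93 for nicd. At st32 suh-dbm+dnmcidas gave -3.68 and -5.37.

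**Figure D2:**
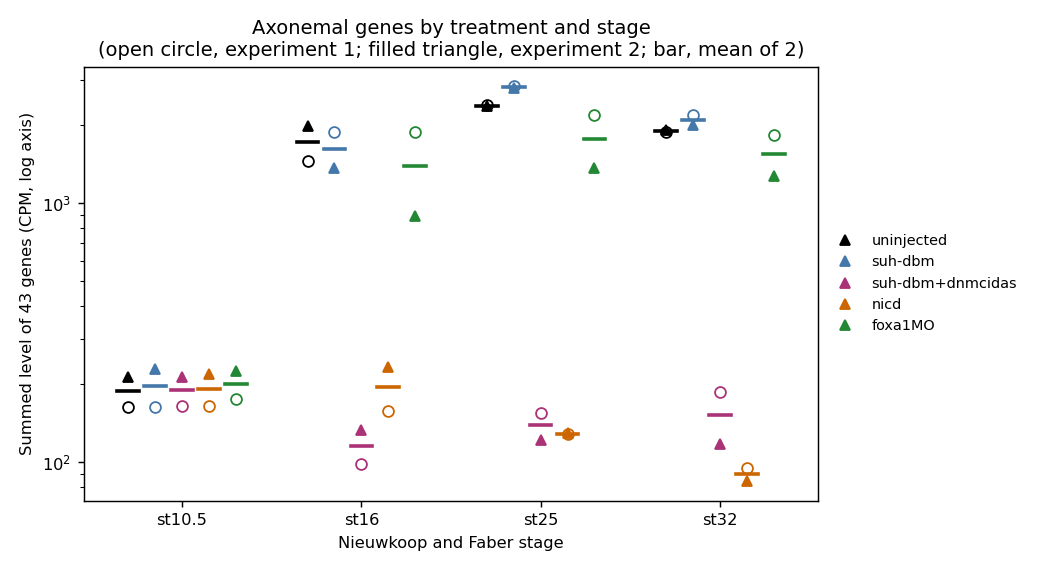
Summed level of the 43 copies in each library (CPM, log axis) against stage, for the 5 treatments; open circles are experiment 1, filled triangles experiment 2 and bars the mean of both. At st10.5 the groups lie together, and from st16 on the suh-dbm+dnmcidas and nicd libraries lie between 84.3 and 234 CPM while the other groups lie between 892 and 2833 CPM.

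Radial spokes extend from the doublets toward the central pair, and all 6 members of this role fell with both treatments at st16, st25 and st32. The spoke head gene rsph1.L had 125 and 135 CPM in uninjected caps at st25, 1.61 and 1.25 CPM with suh-dbm+dnmcidas (-6.75 ± 1.05, adjusted p = 8.79e-05) and 1.53 and 3.25 CPM with nicd (-5.76 ± 0.99, adjusted p = 0.000203). The spoke gene rsph3.L had 87 and 87.5 CPM, 1.17 and 1.76 CPM (-6.15 ± 0.50, adjusted p = 2.37e-08) and 1.59 and 2.95 CPM (-5.26 ± 0.48, adjusted p = 5.66e-08) in the same order. Treated and uninjected libraries did not overlap for either gene. The spoke head gene rsph9.L went from 49.3 and 49.5 CPM to 2.42 and 2.26 CPM (-4.65 ± 0.57, adjusted p = 3.3e-06) and 1.36 and 2.35 CPM (-4.73 ± 0.57, adjusted p = 2.16e-06), again without overlap. Over the role, which also holds rsph14.L, cfap61.L and cfap206.L, the median log2 fold changes at st16, st25 and st32 were -4.97, -6.00 and -4.82 with suh-dbm+dnmcidas. With nicd they were -3.99, -5.51 and -5.81.

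The central pair is the pair of single microtubules with its projections, and its 6 members fell in all 6 comparisons. The projection gene hydin.S had 169 and 102 CPM in uninjected caps at st25, 2.86 and 1.21 CPM with suh-dbm+dnmcidas (-6.32 ± 0.88, adjusted p = 1.86e-05) and 1.77 and 1.48 CPM with nicd (-6.39 ± 0.88, adjusted p = 1.26e-05). The groups did not overlap. For spag6, a gene of the central pair, spag6.L had 80.7 and 67.1 CPM in uninjected caps, 1.61 and 1.59 CPM with suh-dbm+dnmcidas (-5.78 ± 0.95, adjusted p = 0.000167) and 0.324 and 0.526 CPM with nicd (-7.42 ± 1.04, adjusted p = 1.56e-05). The copy spag6.S had 62.3 and 43.9 CPM, 0.367 and 0.502 CPM (-7.19 ± 0.61, adjusted p = 3.09e-08) and 0.589 and 0.751 CPM (-6.30 ± 0.57, adjusted p = 5.67e-08). Neither copy overlapped with its uninjected libraries, and how reads that match both copies were counted is not given in the sources used here. The highest of the role's fold changes was that of cfap46.L in both treatments, with 39 and 28.5 CPM in uninjected caps, 2.31 and 2.26 CPM with suh-dbm+dnmcidas (-4.14 ± 0.55, adjusted p = 9.38e-06) and 2.18 and 2.18 CPM with nicd (-3.95 ± 0.54, adjusted p = 1.12e-05).

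In the nexin-dynein regulatory complex and the ruler, 5 of the 6 members fell in all 6 comparisons, and the other was ccdc65.L. The ruler gene ccdc40.S had 81.8 and 85.9 CPM in uninjected caps at st25, 9.53 and 6.78 CPM with suh-dbm+dnmcidas (-3.62 ± 0.46, adjusted p = 5.08e-06) and 9.66 and 8.79 CPM with nicd (-3.18 ± 0.45, adjusted p = 1.61e-05). Its partner in the ruler, ccdc39.L, had 61.2 and 55.3 CPM, 7.15 and 2.76 CPM (-3.81 ± 0.47, adjusted p = 3.41e-06) and 2.24 and 1.05 CPM (-5.14 ± 0.50, adjusted p = 1.25e-07). None of these groups overlapped with the uninjected one. At st10.5, before ciliation, uninjected caps had 8.58 and 10.8 CPM of ccdc40.S and 5.04 and 6.56 CPM of ccdc39.L. The regulatory complex gene drc3.L went from 48.4 and 55.4 CPM at st25 to 3.63 and 1.59 CPM (-4.56 ± 0.47, adjusted p = 3.19e-07) and 1.15 and 1.73 CPM (-5.16 ± 0.48, adjusted p = 7.69e-08).

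The 6 cfap genes linked to dynein arms fell in all 6 comparisons. At st25 cfap57.L, a gene of inner arm attachment, had 95.1 and 91.6 CPM in uninjected caps, 2.38 and 1.17 CPM with suh-dbm+dnmcidas (-5.96 ± 0.54, adjusted p = 7.39e-08) and 1.74 and 2.15 CPM with nicd (-5.58 ± 0.53, adjusted p = 9.1e-08). The gene cfap44.L, which encodes part of the tether of an inner dynein, had 58 and 89.6 CPM, 3.08 and 2.93 CPM (-4.86 ± 0.45, adjusted p = 9.19e-08) and 0.766 and 1.3 CPM (-6.14 ± 0.48, adjusted p = 1.67e-08). The modifier gene cfap100.L had 66.4 and 70.00 CPM, 1.58 and 1.25 CPM (-5.84 ± 0.54, adjusted p = 9.19e-08) and 1.65 and 3.51 CPM (-4.72 ± 0.51, adjusted p = 4.89e-07). Treated and uninjected libraries of all 3 genes were apart. The fold change nearest 0 in this role was that of cfap73.S, the other modifier gene, with 11.8 and 15.1 CPM in uninjected caps, 4.14 and 3.18 CPM with suh-dbm+dnmcidas (-2.12 ± 0.34, adjusted p = 0.000128) and 3.15 and 3.08 CPM with nicd (-2.10 ± 0.34, adjusted p = 9.72e-05). It had 4.68 and 7.46 CPM at st10.5.

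Doublet inner proteins line the inside of the microtubule wall. All 9 members fell at st16 and st25 with both treatments, and at st32 all 9 fell with nicd and 8 with suh-dbm+dnmcidas. At st25 cfap45.S had 84.8 and 85.5 CPM in uninjected caps, 1.43 and 1.42 CPM with suh-dbm+dnmcidas (-6.15 ± 0.72, adjusted p = 1.94e-06) and 2.83 and 2.18 CPM with nicd (-5.08 ± 0.68, adjusted p = 8.41e-06). For the gene cfap52, the L copy had 91.5 and 94 CPM, 2.49 and 4.85 CPM (-4.91 ± 0.68, adjusted p = 1.78e-05) and 14 and 5.48 CPM (-3.23 ± 0.62, adjusted p = 0.000692), all for cfap52.L. The S copy cfap52.S had 30.3 and 34.6 CPM in uninjected caps and 2 counts over both suh-dbm+dnmcidas libraries, 819 times lower (95% interval 227 to 6766, counting error only), and 0.0589 and 0.1 CPM with nicd. The groups did not overlap for either copy, and no test compared the copies. In cfap53.L the values were 59.3 and 54.1 CPM, 3.85 and 3.05 CPM (-4.29 ± 0.43, adjusted p = 2.62e-07) and 4.1 and 1.73 CPM (-4.27 ± 0.43, adjusted p = 1.95e-07). The member not called at st32 was cfap20.S, with 20.3 and 18.4 CPM in uninjected caps and 8.78 and 6.92 CPM with suh-dbm+dnmcidas (-1.46 ± 0.48, adjusted p = 0.142).

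In the fit over both experiments, the tektins had the lowest role median of all 7 roles in each of the 6 comparisons, with all 7 copies called in each. With suh-dbm+dnmcidas at st32 their summed level was 3.91 CPM in 1 library and 30.7 CPM in the other. At st25 the median log2 fold changes were -8.33 with suh-dbm+dnmcidas and -6.59 with nicd. With suh-dbm+dnmcidas, tekt1.S and tekt2.L had no count in either st25 library, and uninjected caps had 43.8 and 39.6 CPM of tekt1.S and 22.3 and 34.1 CPM of tekt2.L. At a floor of 3 counts over the group, tekt1.S was at least 719-fold lower and tekt2.L at least 462-fold lower. With nicd, tekt1.S had 2 counts over both libraries, 1556 times lower (95% interval 431 to 12853). The copy tekt2.S had 162 and 147 CPM in uninjected caps, 1.98 and 1.25 CPM with suh-dbm+dnmcidas (-6.83 ± 0.83, adjusted p = 3.3e-06) and 0.295 and 1.1 CPM with nicd (-7.77 ± 0.87, adjusted p = 8.87e-07). All 4 treated libraries of tekt2.S lay far below both uninjected ones. The late gene tekt3.L had 0.66 and 0.418 CPM with suh-dbm+dnmcidas (-7.35 ± 1.07, adjusted p = 3.66e-05) and 2.48 and 0.701 CPM with nicd (-5.54 ± 0.96, adjusted p = 0.00021) at st25. In tekt4.S the values were 75.8 and 70.8 CPM in uninjected caps, 0.44 and 0.0837 CPM with suh-dbm+dnmcidas (-8.33 ± 0.96, adjusted p = 1.65e-06) and 0.707 and 0.801 CPM with nicd (-6.59 ± 0.85, adjusted p = 5.95e-06).

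Few members were left uncalled in some of the 6 comparisons, among them 2 of the 3 cfap genes placed in none of these structures. Both of these genes were called in other comparisons. At st25 cfap36.L had 28.8 and 38.9 CPM in uninjected caps, 31 and 29.5 CPM with suh-dbm+dnmcidas (-0.41 ± 0.27, adjusted p = 0.454) and 29.8 and 32.3 CPM with nicd (-0.12 ± 0.27, adjusted p = 0.86). The groups overlapped. At st16 the same gene had 23.8 and 26.9 CPM in uninjected caps and fell to 6.89 and 11.3 CPM with suh-dbm+dnmcidas (-1.62 ± 0.27, adjusted p = 0.000239) and to 13.9 and 15.3 CPM with nicd (-0.84 ± 0.27, adjusted p = 0.0452). The gene cfap97.L had 19.9 and 21.4 CPM in uninjected caps at st25, 21.4 and 14.7 CPM with suh-dbm+dnmcidas (-0.45 ± 0.29, adjusted p = 0.45) and 9.02 and 12.9 CPM with nicd (-0.91 ± 0.29, adjusted p = 0.0377). Of these, the nicd libraries alone lay below both uninjected ones. In uninjected caps at st10.5, cfap97.L stood at 50.6% and cfap36.L at 31.5% of their st25 means, against the median of 5.34% over the members. The other gene of this group, cfap157.L, went from 28.8 and 26.7 CPM to 0.843 and 0.586 CPM (-5.52 ± 0.66, adjusted p = 2.26e-06) and 0.442 and 1.05 CPM (-5.21 ± 0.64, adjusted p = 2.77e-06). The copy ccdc65.L was called in none of the 6 comparisons and had no count in 18 of the 40 libraries, whereas ccdc65.S went from 23.1 and 19.5 CPM to 0.55 and 0.795 CPM and 0.471 and 0.351 CPM.

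**Figure D3:**
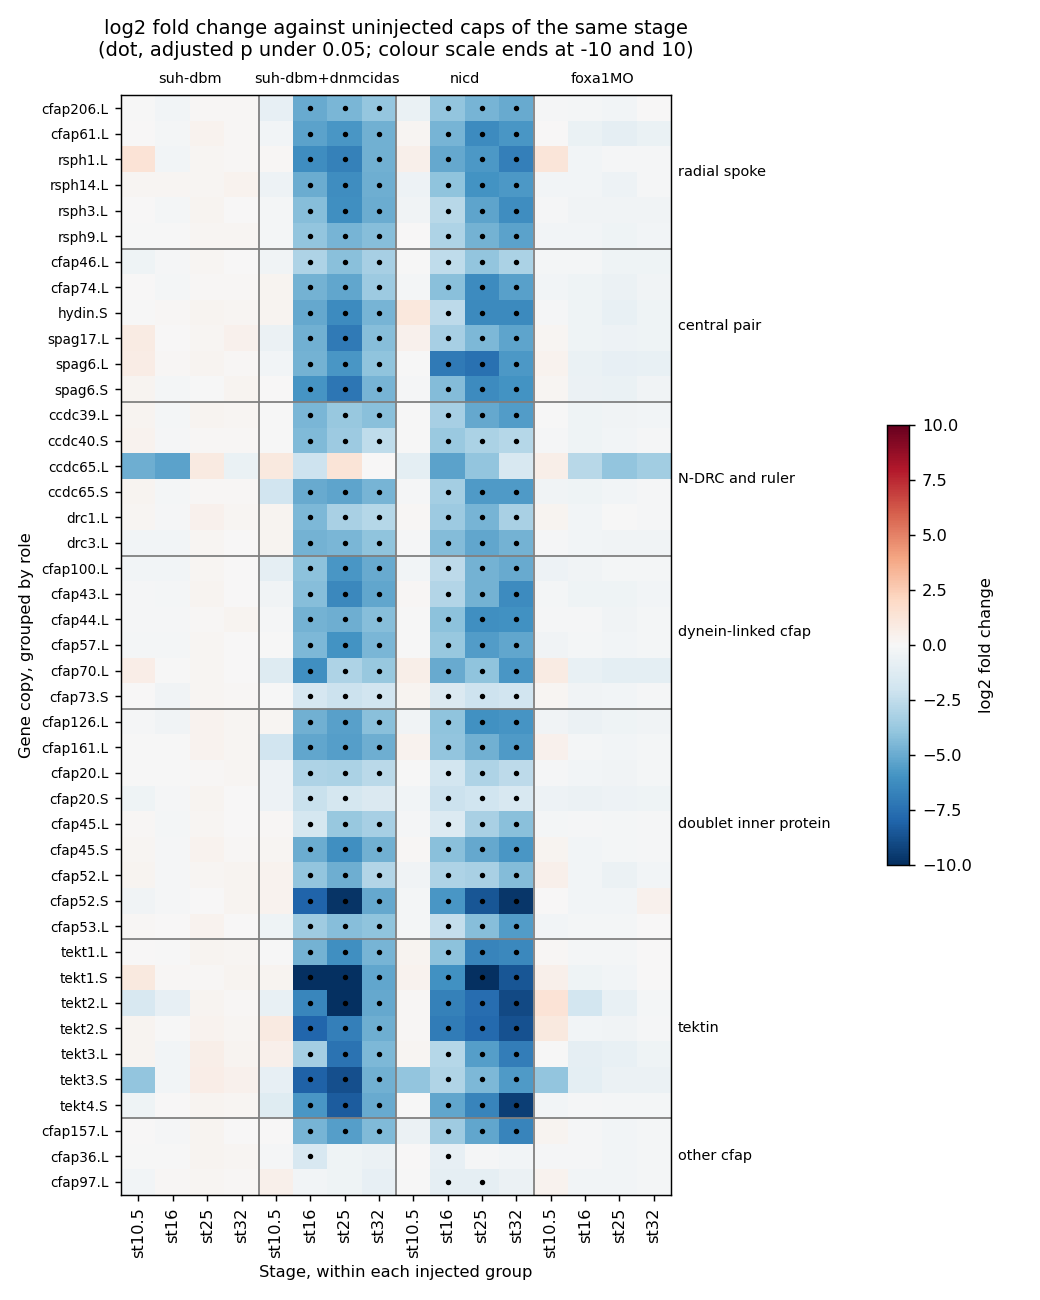
Fitted log2 fold change of each of the 43 copies (rows, by role) against uninjected caps of the same stage, for 4 injected groups at 4 stages (columns); a dot marks an adjusted p under 0.05, and N-DRC is the nexin-dynein regulatory complex. The suh-dbm+dnmcidas and nicd columns are dotted from st16 on in nearly all rows, with 39 to 42 of 43 called, and the suh-dbm and foxa1MO columns hold no dot.

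The level that remained was set beside that of the tissue before ciliation. With suh-dbm+dnmcidas, both libraries lay below both uninjected st10.5 libraries in 21, 23 and 13 of 43 copies at st16, st25 and st32, where this held for 44.3%, 40.6% and 41.5% of all genes tested. They lay above both in 5, 9 and 12 copies, against 26.3%, 32.6% and 34.1% of all genes tested. With nicd, 11, 23 and 28 copies lay below, against 43.6%, 45.3% and 44.6%, and 10, 8 and 6 above, against 23.7%, 28.1% and 31.8%. The copies below and above were thus near equal in number with nicd at st16 and with suh-dbm+dnmcidas at st32. Several counts lay near the share of all genes tested, such as the 21 below with suh-dbm+dnmcidas and the 10 above with nicd at st16. Others lay farther from it, such as the 28 below with nicd at st32. An example below at st25 is spag6.S, with 7.65 and 8.78 CPM in uninjected caps at st10.5, and an example above at st25 is cfap36.L, with 12.4 and 8.9 CPM. These counts carry no test, and stage and treatment differ together in them.

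Adding dnmcidas to suh-dbm was compared with suh-dbm alone, which varies the dominant-negative multicilin. The amount of injected mRNA varies with it, 100 ng/ul each of suh-dbm and dnmcidas against 100 ng/ul of suh-dbm. No group with a control mRNA balances this, so the effects of dnmcidas and of mRNA amount cannot be told apart. At st10.5 no copy was called, where 0.00632% of all genes tested were, and DESeq2 called none. An unadjusted p under 0.05 was reached by 3 copies and by 3.53% of all genes tested. At st16, st25 and st32, 41, 40 and 39 of the 43 copies fell, where 3.02%, 3.91% and 2.32% of all genes tested fell. The median log2 fold changes were -4.50, -5.78 and -4.53. At st25 the summed level was 2833 and 2792 CPM with suh-dbm and 155 and 122 CPM with dnmcidas added. Fitted on these 4 libraries alone, the count at st32 was 25.

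With suh-dbm alone no member was called at any stage, nor by DESeq2, and none had an unadjusted p under 0.05. The last was reached by 1.97%, 2.12%, 3.55% and 2.56% of all genes tested at the 4 stages. Of all genes tested 0.00316% were called at st10.5 and st16 and 0% at st25 and st32. At st25 the summed level was 2833 and 2792 CPM with suh-dbm against 2399.8 and 2376 CPM in uninjected caps. Of the 43 log2 fold changes 42 lay above 0, with a median of 0.23 against -0.02 over all genes tested. The CPM was higher in both experiments for 38 copies, where this held for 25.5% of all genes tested, and the groups did not overlap, with suh-dbm higher, for 24 copies, where this held for 15.3%. Apart from ccdc65.L, the largest fold changes at st25 were those of tektin 3. The copy tekt3.S had 124 and 106 CPM against 72.8 and 75.7 CPM (0.65 ± 0.70, adjusted p = 1), and tekt3.L had 114 and 101 CPM against 71 and 78.8 CPM (0.55 ± 0.78, adjusted p = 1). At st32 the median was 0.15 (0.00 over all genes tested), with 30 copies higher in both experiments, where 25.2% of all genes tested were.

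At st16 the experiments differed in direction with suh-dbm. The summed level was 1879 and 1368 CPM with suh-dbm in experiments 1 and 2, against 1453 and 1990.2 CPM in uninjected caps. The median log2 ratio of the members was 0.31 in experiment 1, with 4 copies below 0, and -0.59 in experiment 2, with all 43 below 0. The uninjected st16 library of experiment 2 was itself higher than that of experiment 1 in 41 of 43 copies. Its median ratio of experiment 1 to experiment 2 was 0.718. The suh-dbm libraries of this stage differed the other way, with experiment 1 higher in 39 of 43 copies at a median ratio of 1.34. Over all genes these shares were not counted. The fitted median over both experiments was -0.14, against -0.11 over all genes tested. The share of all genes below 0 within each experiment was not counted.

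The foxa1 morpholino likewise gave no called member at any stage, by edgeR or DESeq2, where 0.0158%, 0.0442%, 0.0284% and 0.0126% of all genes tested were called at the 4 stages. Its experiments also differed, and its ratios use the same uninjected libraries as those of suh-dbm. At st16 the morpholino library of experiment 1 was higher than that of experiment 2 in 42 of 43 copies, at a median ratio of 2.10. The summed level with the morpholino was 1885 and 892 CPM at st16, 2191 and 1364 CPM at st25 and 1834 and 1274 CPM at st32 in experiments 1 and 2, against the uninjected values given above. In experiment 2 the median log2 ratios were -1.21, -0.78 and -0.45, with 43, 43 and 41 of 43 copies below 0. In experiment 1 they were 0.30, 0.00 and -0.03, with 6, 20 and 25 copies below 0. These ratios use normalized library sizes and a prior count, whereas CPM uses the plain library total, so copies near 0 can change sign between the scales. How many of all genes lay below 0 within each experiment was not counted. The fitted medians over both experiments were -0.31, -0.32 and -0.21 at st16, st25 and st32, against -0.05, 0.00 and 0.00 over all genes tested. A CPM lower in both experiments was seen in 25 copies at st25, where 29.4% of all genes tested were, and in 22 at st32, where 28.7% were. An unadjusted p under 0.05 was reached by 1 member, tekt2.L at st16, with 2.55 and 2.21 CPM against 3.97 and 13.1 CPM (-1.84 ± 0.69, adjusted p = 1). At that stage 3.67% of all genes tested reached it. Dynein arm genes, which are not members, summed over 12 copies to 712 and 263 CPM with the morpholino at st16 against 482 and 744 CPM in uninjected caps. That list was lower than in uninjected caps in experiment 2 and higher in experiment 1. It was read from the same libraries as the members, so it is no separate check.

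**Figure D4:**
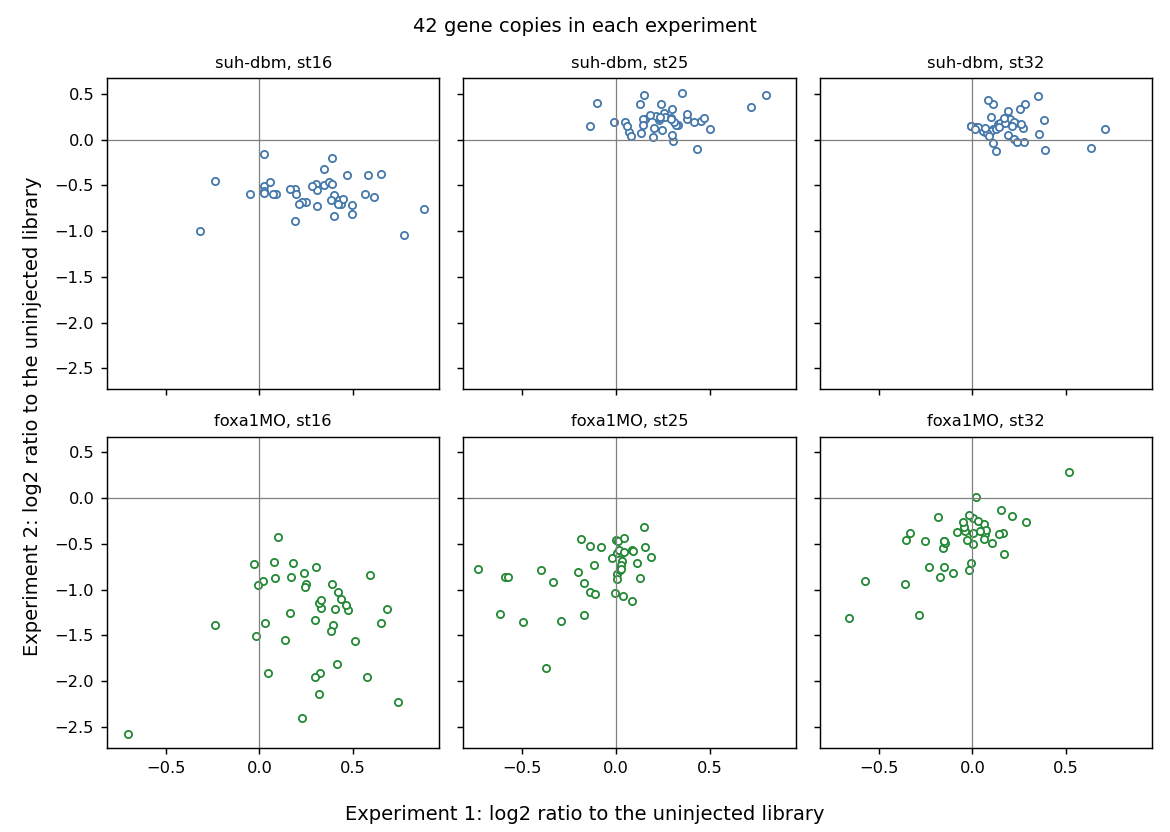
Log2 ratio of each of 42 copies to the uninjected library of the same experiment and stage, experiment 1 against experiment 2, for suh-dbm and foxa1MO at st16, st25 and st32 (ccdc65.L is left out for its low counts). At st16 the experiment 2 ratios of both treatments lie below 0, with medians of -0.59 and -1.21, while the experiment 1 medians are 0.31 and 0.30. Both treatments share their uninjected libraries, and at st16 that of experiment 2 was the higher one in 41 of 43 copies. Of the injected st16 libraries, that of experiment 1 was the higher one in 39 (suh-dbm) and 42 (foxa1MO) of 43 copies.

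The treatments under which the axonemal genes fell were also compared directly, nicd against suh-dbm+dnmcidas, which share no library. At st10.5 no member was called, where 0.0885% of all genes tested were, and DESeq2 called none. An unadjusted p under 0.05 was reached by 1 member and by 4.05% of all genes tested. At st16 the members were mostly higher with nicd: 39 of 43 log2 fold changes lay above 0 with a median of 0.87, and 6 copies were called higher and none lower, where 4% of all genes tested were called higher. The largest value was that of tekt3.S, with 0.642 and 1.25 CPM with nicd and 0 and 0.061 CPM with suh-dbm+dnmcidas, 37.2 times higher (95% interval 9.93 to 314; adjusted p = 0.0171). Next among the 6 called copies was hydin.S, with 13.6 and 12.2 CPM against 2.84 and 1.86 CPM (2.52 ± 0.74, adjusted p = 0.0375). The others were cfap52.S (2.22 ± 0.61, adjusted p = 0.0251), cfap100.L (1.47 ± 0.44, adjusted p = 0.0422), rsph3.L (1.44 ± 0.41, adjusted p = 0.032) and cfap20.L (1.21 ± 0.36, adjusted p = 0.0366). The groups did not overlap, with nicd higher, in 26 copies, where this held for 20.9% of all genes tested. Without either suh-dbm+dnmcidas library or the nicd library of experiment 2 no copy was called, and without the nicd library of experiment 1 there were 4.

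At st25 the median was 0.19 (0.14 with copies at 0 counts at their bound). Called higher with nicd were 2 copies, where 4.72% of all genes tested were. These were tekt3.S, with 1.97 and 4.51 CPM against 0.0733 and 0.335 CPM (4.26 ± 0.98, adjusted p = 0.00727), and the central pair gene spag17.L, with 1.92 and 1.65 CPM against 0.293 and 0.418 CPM (2.58 ± 0.80, adjusted p = 0.0451). Both genes were apart in their libraries. Over the members, libraries were apart with nicd higher in 13 copies, where 17% of all genes tested were, and with nicd lower in 11, where 33.7% were. With the experiment as a term, 3 copies were called higher and 1 lower, and without the suh-dbm+dnmcidas library of experiment 1 none was.

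At st32 the direction was the opposite, with 38 of 43 log2 fold changes below 0 and a median of -1.17. Called lower with nicd were 6 copies, where 2.1% of all genes tested were. In cfap52.S the nicd libraries had 0.0217 and 0 CPM and the suh-dbm+dnmcidas libraries 0.581 and 0.219 CPM, a ratio of 32.8 (95% interval 5.42 to 1341; adjusted p = 0.00769). In tekt4.S they had 0.173 and 0 CPM against 3.81 and 0.437 CPM (-4.33 ± 0.95, adjusted p = 0.00949). In tekt2.S they had 0.347 and 0.216 CPM against 7.44 and 1.64 CPM (-3.85 ± 0.81, adjusted p = 0.00661). The nicd libraries were the lower ones in each of these genes. The others called were tekt2.L (-3.91 ± 1.00, adjusted p = 0.0304), cfap44.L (-1.78 ± 0.42, adjusted p = 0.017) and cfap53.L (-1.53 ± 0.42, adjusted p = 0.0432).

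The suh-dbm+dnmcidas libraries themselves were uneven at st32, with 38 of 43 copies higher in experiment 1 at a median ratio of 2.69 between the experiments. Other groups were as one-sided, such as foxa1MO at st16 with 42 of 43 at 2.10, and the share over all genes was not counted. In the suh-dbm+dnmcidas libraries at st32 the late gene tekt3.L, for example, had 9.04 and 0.383 CPM. In the same libraries, reads of the injected genes stood at 9.13 and 133 CPM for rbpj.S and 142 and 234 CPM for mcidas.S, against 3.8 and 4.9 CPM of rbpj.S in uninjected caps, and the part of this difference in the result was not tested. Without the suh-dbm+dnmcidas library of experiment 1 no copy was called between nicd and suh-dbm+dnmcidas at st32, without that of experiment 2 there were 13, and without either nicd library there was 1. With the experiment as a term within each stage, 13 copies were called higher and 1 lower with nicd at st16, 5 higher and 3 lower at st25, and 13 lower and 0 higher at st32.

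A test of the difference between the st32 and st16 contrasts of nicd against suh-dbm+dnmcidas, added after the values were seen, called 10 copies, all lower at st32, where 0.983% of all genes tested were. The values farthest from 0 were those of tekt1.S (-7.34 ± 1.76, adjusted p = 0.0332) and cfap52.S (-6.82 ± 1.15, adjusted p = 0.00205). Both rest on few counts, so their sizes are uncertain. At st16 tekt1.S had 2 counts over the suh-dbm+dnmcidas libraries and 30 over the nicd libraries. At st32 cfap52.S had 1 count over the nicd libraries and 28 over the suh-dbm+dnmcidas libraries. Also called were tekt4.S (-4.97 ± 1.22), tekt2.S (-4.85 ± 1.14), hydin.S (-4.23 ± 1.06), cfap157.L (-3.42 ± 0.86), rsph3.L (-2.70 ± 0.60), cfap53.L (-2.69 ± 0.57), ccdc39.L (-2.58 ± 0.63) and cfap44.L (-2.41 ± 0.58). Leaving out single libraries gave 1 to 16 called copies, with 1 without the suh-dbm+dnmcidas st32 library of experiment 1 or the nicd st32 library of experiment 2, and 16 without the suh-dbm+dnmcidas st32 library of experiment 2.

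Against uninjected caps, no member was called for a difference between the st32 and st25 effects. For suh-dbm+dnmcidas the median difference was 1.15, where 0% of all genes tested were called. An unadjusted p under 0.05 was reached by 11 members and by 3.97% of all genes tested, and DESeq2 called 3 members. For nicd the median difference was -0.20, where 0.00316% of all genes tested were called. Here an unadjusted p under 0.05 was reached by 4 members and by 5.26% of all genes tested, and DESeq2 called no member.

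**Figure D5:**
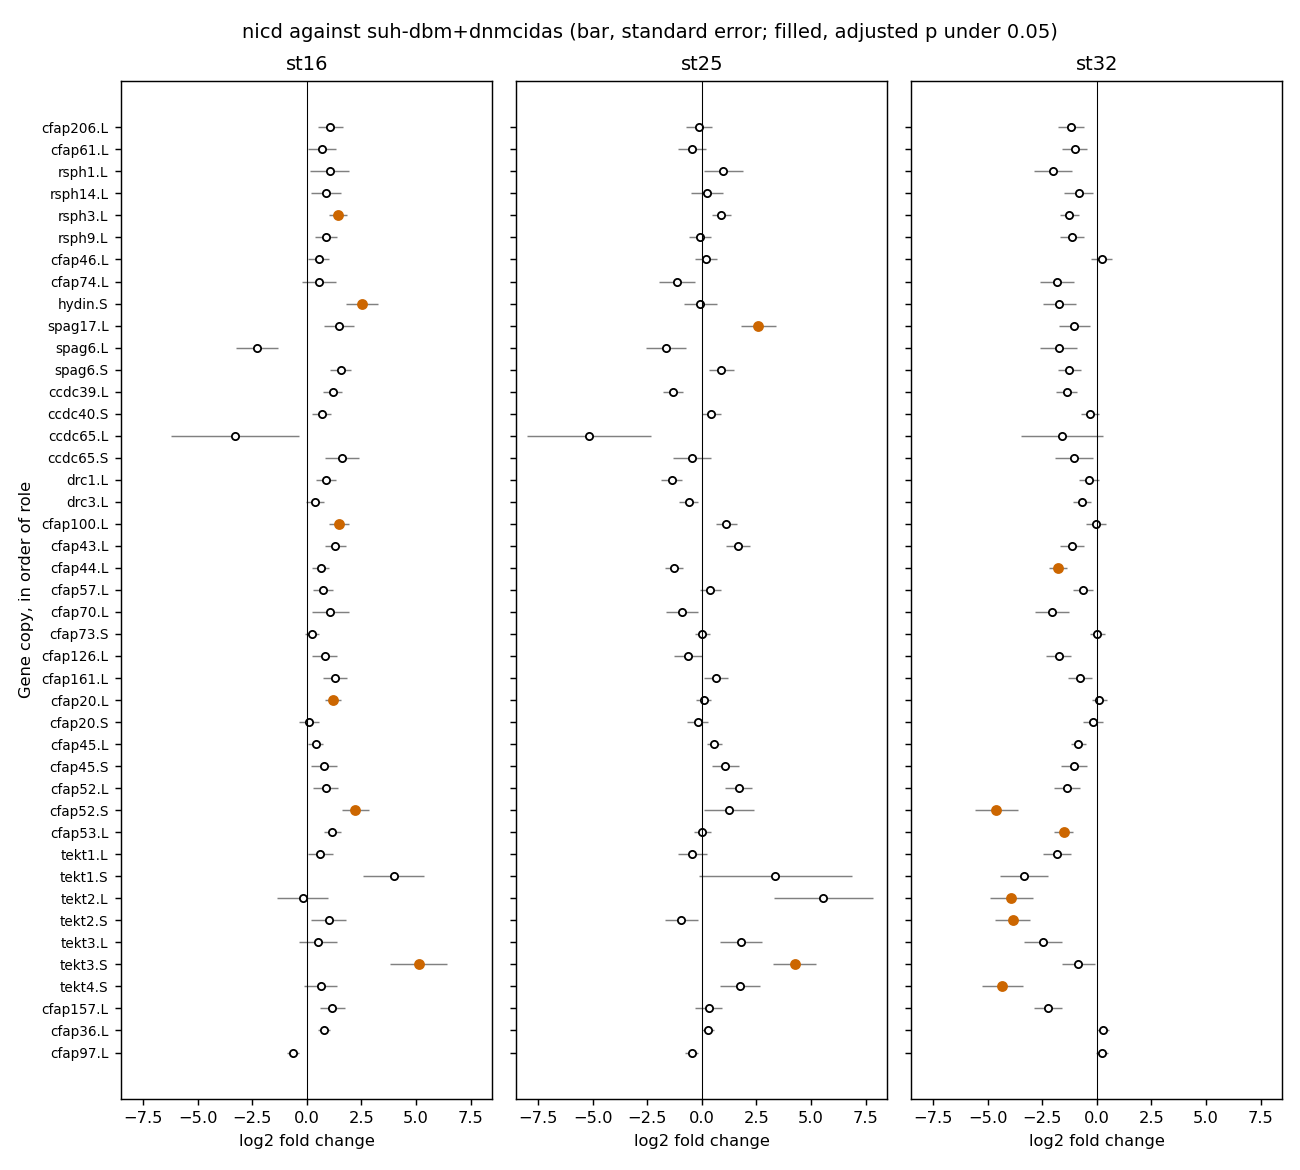
Log2 fold change (± standard error) of nicd against suh-dbm+dnmcidas for the 43 copies at st16, st25 and st32; filled points have an adjusted p under 0.05. The points lie mostly right of 0 at st16 (median 0.87), on both sides of 0 at st25 (median 0.19) and mostly left of 0 at st32 (median -1.17).

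Other genes of the motile cilium fell in the same comparisons. Of all genes tested, 3.72%, 4.26% and 2.3% fell with suh-dbm+dnmcidas and 7.22%, 7.1% and 4.05% with nicd at st16, st25 and st32. Of 11 tested dynein arm copies, 10, 10 and 10 fell with suh-dbm+dnmcidas and 9, 10 and 10 with nicd at st16, st25 and st32. Of 10 dynein assembly factors, 10, 10 and 6 fell with suh-dbm+dnmcidas and 9, 9 and 6 with nicd. Intraflagellar transport genes also serve immotile cilia. Of 16 such copies, 14, 12 and 9 fell with suh-dbm+dnmcidas and 14, 15 and 11 with nicd, with median log2 fold changes at st25 of -2.00 and -2.41. Of 20 copies of multiciliated cell regulators other than mcidas, 8, 5 and 2 fell with suh-dbm+dnmcidas and 11, 5 and 3 with nicd. Among them foxj1.S, a main factor of motile ciliogenesis, had 58.9 and 66.1 CPM in uninjected caps at st25, 0.33 and 0 CPM with suh-dbm+dnmcidas (-8.72 ± 1.18, adjusted p = 1.29e-05) and 1.68 and 0.25 CPM with nicd (-6.01 ± 0.98, adjusted p = 0.000102). This copy does not stand for the whole list, of which only 5 of 20 copies fell at st25 with each treatment.

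Markers of other cell types were read beside these results. Of 19 ionocyte copies, 14, 16 and 15 fell with nicd at st16, st25 and st32, where 7.22%, 7.1% and 4.05% of all genes tested fell. None of the ionocyte copies was called with suh-dbm+dnmcidas, where 3.72%, 4.26% and 2.3% of all genes tested fell. The share of all genes called higher with suh-dbm+dnmcidas is not given here. At st25 they summed to 2675 and 3232 CPM in uninjected caps, 204 and 299 CPM with nicd and 7354 and 8304 CPM with suh-dbm+dnmcidas. Markers of mesoderm and muscle, 8 copies, summed with nicd to 4.31 and 143 CPM at st16, 77.3 and 211 CPM at st25 and 39.2 and 168 CPM at st32, with up to 3, 3 and 4 copies at 0 in a library. In uninjected caps they summed to 1.51 and 5.11 CPM, 10.7 and 16 CPM and 13.9 and 19.8 CPM, and 2, 1 and 0 of 6 tested copies rose with nicd, where 2.71%, 5.21% and 1.78% of all genes tested rose. Their part in the nicd result was not tested. With suh-dbm+dnmcidas the same markers summed at st25 to 1.47 and 3.68 CPM. Neural markers, 10 copies, summed at st25 to 8.37 and 7.55 CPM in uninjected caps, 24.8 and 24.7 CPM with nicd and 25 and 19.9 CPM with suh-dbm+dnmcidas, and their part was not tested. Goblet cell markers summed at st25 to 15125 and 14057 CPM in uninjected caps, 9449.8 and 10774 CPM with nicd and 10956 and 11291 CPM with suh-dbm+dnmcidas.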

How the data were processed

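RNA of 40 Xenopus laevis animal cap libraries was poly-A selected and sequenced unstranded in paired-end runs, per the labels' protocols. The deposited values are raw counts per gene made by the authors. The submitters' processing notes name FastQC 0.11.5, STAR 2.6.0b-1, featureCounts 1.6.3 and DESeq2 1.22.1; the genome build and the handling of reads that match several genes are not given in the sources used here. Reads of L and S copies, and of overlapping antisense genes, may therefore be mixed.

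Counts were fitted in edgeR 4.0.16 (R 4.3.3, limma 3.58.1) with trimmed-mean normalization, filterByExpr (minimum count 10, minimum total 15) and 1 quasi-likelihood model of 40 libraries in 20 groups (20 residual degrees of freedom), tested on simulated counts first. P-values were Benjamini-Hochberg adjusted over 31648 genes at a threshold of 0.05, and standard errors were taken from the F statistics. CPM values are counts scaled to the library total. Per-experiment log2 ratios used a prior count of 2. For counts at 0 a floor of 3 counts over the group was used, and 95% exact intervals cover counting error only. With 2 libraries per group, p-values rest on the spread between 2 experiments, pooled over all 20 groups, and on a dispersion trend over genes. They do not measure how well the 2 experiments of a single comparison match. The main fit holds no term for the experiment.

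The members and gene lists were chosen with earlier results of these data known. Named genes are, in each role, up to 3 copies with the highest mean CPM, those called where 5 or fewer were, the called ones of largest change for nicd against suh-dbm+dnmcidas and for differences of effects, and the uncalled ones at st25; other copies were named after their values were seen. Libraries of 1 experiment share a female and a fertilization, so replicate numbers pair the samples: deviations from group means correlated at 0.0859 to 0.788 (median 0.579) over 40 pairs of the same stage and 0.0182 to 0.499 (median 0.147) over 150 pairs of other stages, across 19209 genes. Alternatives were other size factors, no count filter, DESeq2 1.42.0, the 4 libraries of a comparison alone, the experiment as a term (also within each stage, added after seeing the data), summed L and S copies and leaving out each library with the dispersion trend held. Of the 43 member symbols 41 matched RefSeq gene names; sequences were not analysed here.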

Additional observations from a re-analysis of the deposited data

Results flagged for a closer look

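The log2 ratio of the summed level of the 43 axonemal copies had one sign in both experiments at some stages and the other sign at others. These differences between stages were not tested on the sum. For nicd against uninjected caps, the mean log2 ratio of the sum was 0.0257 at st10.5, -3.15 at st16, -4.21 at st25 and -4.41 at st32. The st10.5 ratios were 0.0118 and 0.0396 in experiments 1 and 2, which is little change rather than a rise. For foxa1MO against uninjected caps the mean was 0.086 at st10.5, -0.466 at st25 and -0.318 at st32, with the experiments on opposite sides of 0 at st16. At st32 experiment 1 gave only -0.0392 and experiment 2 -0.596. For nicd against suh-dbm+dnmcidas the mean was 0.748 at st16 and -0.726 at st32. For this last pair of stages the difference was tested per gene by edgeR after the values were seen. In that test 10 copies were called lower at st32, where 0.983% of all genes tested were. This count depended strongly on single libraries.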

How the results depend on the processing

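In the counts of called members against uninjected caps, and from st10.5 to st16, no alternative moved a count by more than 1.5 times. Adding dnmcidas to suh-dbm gave 25 at st32 in a fit of the 4 libraries alone (main 39). For nicd against suh-dbm+dnmcidas the counts at st16, st25 and st32 (main 6, 2 and 6) were 14, 8 and 13 with the replicate block within each stage, 10, 8 and 10 by DESeq2 and 0, 0 and 0 in 4 libraries alone. At st16 the block's 14 were 13 higher and 1 lower, and at st25 both the block's 8 and those of DESeq2 were 5 higher and 3 lower. Summed L and S copies gave 3 at st16, and at st25 other size factors gave 1, no count filter 7 (4 higher, 3 lower) and the replicate block 4 (3 higher, 1 lower). For uninjected st25 against st16 (main 2) the block within each stage gave 6, summed copies 1, 4 libraries alone 10 and DESeq2 4; for st32 against st25 (main 0) these gave 2 (block within each stage), 2 (4 libraries) and 1 (DESeq2). The difference of suh-dbm+dnmcidas effects between st32 and st25 (main 0) had 3 without the filter and 3 by DESeq2, and that of nicd against suh-dbm+dnmcidas between st32 and st16 (main 10) had 17 with the block within each stage. The causes were not tested.

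Leaving out single libraries gave 37 to 41, 38 to 39 and 32 to 39 called for suh-dbm+dnmcidas against uninjected caps at st16, st25 and st32, 31 to 39, 39 to 40 and 39 for nicd, and 37 to 39, 38 to 40 and 33 to 39 for dnmcidas added to suh-dbm. It gave 0 to 4, 0 to 2 and 0 to 13 for nicd against suh-dbm+dnmcidas, 1 to 16 for the difference of that contrast, 40 to 42 and 0 to 3 for uninjected st16 against st10.5 and st25 against st16, and 0 elsewhere. A lone library was assumed to vary like the other groups. Of the single values named, the replicate block changed no call. In a fit of the 4 libraries of a comparison alone, 371 of these values stayed the same and 52 were weaker. The uncalled log2 fold change of cfap36.L for nicd at st25 was -0.31 to 0.043 when an uninjected library was left out (main -0.12). Other size factors shifted the median of all genes by 0.142 for suh-dbm and 0.103 for nicd against uninjected caps at st10.5. Depth limits ccdc65.L and the tektins at a few counts.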
